A study of Mus musculus with 59 samples.

Results

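The comparison set out here is that of the adult cerebral cortex of mice exposed to valproic acid (VPA) before birth with the cortex of mice whose dams received the vehicle, methylcellulose (MC). Its members were chosen by their labels alone: adult cortex, no running wheel in the cage, VPA or MC, which gave 6 of the 59 arrays of the series, 3 in each group. All were male C57BL/6 mice of 12 to 13 weeks. The dams of the VPA group had been given 300 mg/kg VPA by mouth daily from E12.5 to E14.5 of gestation (3 doses), and the dams of the MC group the same volume of 0.5% (w/v) methylcellulose on the same days. The offspring received no drug themselves. Cortex from mice raised with a running wheel after weaning (VPA+RW and MC+RW, 3 arrays each), adult hippocampus without the wheel (VPA and MC, 3 arrays each), and the telencephalon at E14.5 and the forebrain at E18.5 (VPA and MC, 3 arrays each) are used below where they bear on the adult cortex. Hippocampal arrays of runners (VPA+RW and MC+RW) entered the fits of that tissue for the estimate of spread only. Embryonic arrays of valpromide (VPM), given to dams at 300 mg/kg on the same days, entered the embryonic fits in the same way. The labels call the replicates biological but name neither dams nor litters, so p-values measure the spread between arrays, and a shared litter cannot be told apart from the treatment.

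Valproic acid is an antiepileptic and mood-stabilising drug that inhibits class I and class IIa histone deacetylases, enzymes that remove acetyl groups from histone tails. Exposure in the womb is a known cause of malformation in children and is associated with lower cognitive scores and autism, and rodents exposed at the time of cortical neurogenesis are a common model of it. The comparison asks which genes still differ in the mature cortex, long after the drug has gone.

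RNA from each cortex was hybridised to 1 Affymetrix Mouse Genome 430 2.0 array. Signals were scaled so that the 2% trimmed mean of every array was 500, and a log2 difference is VPA minus MC. The trimmed mean before scaling was 284.5 to 397.7, at most 20.8% of probe sets lay at or below a signal of 32 in the 6 arrays, and no arrays of the series were identical. Correlations between arrays of a group were 0.983 or higher except those of MC replicate 3 with the other MC arrays, at 0.971 and 0.973, so that results are also given without that array where it matters. On the third principal component of the 12 cortex arrays, which held 10.3% of the variance, the MC arrays scored -16.5, -14.2 and -11.1, while the 9 arrays of the other 3 groups lay between -4.3 and 10.7. Cortical markers were present in every array: Slc17a7, the vesicular glutamate transporter of cortical excitatory neurons, had 7628, 8380 and 8309 in VPA cortex, against 8176, 7531 and 8362 in MC cortex. Tbr1, a transcription factor of deep-layer neurons, had 1865, 1702 and 1896 in VPA cortex, against 1612, 1899 and 1701 in MC cortex, and Prox1, which marks granule cells of the dentate gyrus, stayed at 84.4 to 103 in the 6 arrays. The striatal receptor Drd1 had 1263 to 1858 in VPA cortex and 1457 to 1776 in MC cortex. Ttr, the leading transcript of the choroid plexus, had 9946 in VPA replicate 1, against 195.4 to 566.8 in the other 5 arrays. The 8 choroid plexus and ependyma markers measured summed to 2416 to 12327 in VPA cortex and 2383 to 2637 in MC cortex, and the part of this tissue in the results was not tested.

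Of 13644 genes tested with limma, 1 differed between VPA and MC cortex at an adjusted p below 0.05, which is 0.00733% of genes: Epcam, which was higher in VPA. No gene fell. Relaxing the adjusted threshold to 0.10 gave 4 genes and relaxing it to 0.20 gave 84. At an unadjusted p below 0.05, 1420 genes (10.4%) stood out, 778 of them higher in VPA (5.7% of genes) and 642 lower (4.71%). Without MC replicate 3 these were 877 and 780, with 0 genes past the adjusted test. The groups did not overlap for 2136 genes (15.7%). On the values as deposited, without the scaling, 470 genes had an unadjusted p below 0.05 and 10.6% of them were higher in VPA, against 54.8% here, and the median of all genes lay at -0.10 on that scale, against -0.0028 after scaling.

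The size of difference that these arrays leave room for can be read from the intervals. The median standard error of a log2 difference was 0.111, and the median 95% interval reached 0.239 to either side. For 10510 genes (77%) the whole interval lay within a 1.5-fold difference in either direction, and for 12805 (93.9%) it lay within a 2-fold difference. The estimate itself reached 1.5-fold for 259 genes and 2-fold for 61, of which 29 were higher and 32 lower in VPA.

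Epcam, an adhesion molecule of epithelial cells, had a signal of 354, 360 and 396 in VPA cortex, against 161, 130 and 165 in MC cortex. The lowest VPA array was more than 2-fold above the highest MC array. The log2 difference was 1.29 ± 0.16 (SE, n = 3 arrays per group, limma, adjusted p = 0.0257). VPA replicate 1, the array rich in Ttr, had the lowest Epcam signal of the VPA group. The value comes from a probe set whose name ends in _x_at, a type that Affymetrix marks as able to bind other transcripts, and the gene's other probe set averaged 23 in VPA cortex and 10.1 in MC cortex, below the floor of 32 in both. Leaving out any 1 of the 6 arrays kept the log2 difference between 1.18 and 1.35, with an adjusted p of 0.0503 to 0.201 in limma, so the call needs all 6. Of the 6 runner arrays that share the fit, leaving out MC+RW replicate 1 also ended it (adjusted p = 0.0547). In runners the log2 difference was 0.64 (unadjusted p = 0.00168, adjusted p = 0.302), and in the hippocampus it was -0.80 (unadjusted p = 0.203).

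The next 11 genes that were higher in VPA did not pass the adjusted test and are given by their values. Ggt7, of the gamma-glutamyltransferase family, had the largest log2 difference of these, 2.23 ± 0.36 (SE, n = 3 per group, limma, adjusted p = 0.0932). Its signal was 906, 936 and 1014 in VPA cortex, against 219, 149 and 256 in MC cortex, so the groups lay far apart. In runners there was no such gap: the log2 difference was -0.34 (unadjusted p = 0.363), and the difference between the VPA effects without and with the wheel had an unadjusted p of 0.000199 but no gene of that test passed adjustment. In hippocampus without the wheel the Ggt7 difference was 2.06 (unadjusted p = 0.000326).

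Selenok, a selenoprotein of the endoplasmic reticulum membrane, had 4790, 4933 and 5193 in VPA cortex, against 3525, 3891 and 3328 in MC cortex, a log2 difference of 0.48 (limma adjusted p = 0.0727), while its other measured probe set gave -0.05. Sap30, a subunit of the Sin3 histone deacetylase complex, had 577, 681 and 627 in VPA cortex, against 368, 413 and 428 in MC cortex, a log2 difference of 0.64. The groups were apart for both genes in cortex without the wheel, and in runners Selenok differed by 0.26 (unadjusted p = 0.00318) and Sap30 by -0.10 (unadjusted p = 0.4). Vtn (vitronectin, made by pericytes in brain), Bgn (biglycan, a matrix proteoglycan) and Slc2a1 (the glucose transporter of the blood-brain barrier) had log2 differences of 0.37, 0.47 and 0.43. Mob4, Slc6a20a (a proline transporter), Gabrb2 (a beta subunit of the GABA-A receptor) and Phc2 (a Polycomb protein) differed by 0.57, 0.49, 0.21 and 0.28. The other probe sets of Mob4 gave smaller values, 0.11 and 0.12. Klf9, a transcription factor induced by glucocorticoid and thyroid hormone, differed by 0.27 on its brightest probe set, with 9635, 9655 and 9837 in VPA cortex, against 7863, 7666 and 8711 in MC cortex, but 4 of its 6 other probe sets gave values below 0. All 12 genes had groups that did not overlap, which the ranking by p all but fixes.

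The 12 leading genes on the lower side likewise did not pass. Dlgap3, a scaffold protein of the postsynaptic density whose loss causes compulsive grooming in mice, had 2278, 2325 and 2325 in VPA cortex, against 3001, 2902 and 3092 in MC cortex. These arrays were close within each group and the groups were apart, with a log2 difference of -0.38 ± 0.06 (SE, n = 3 per group, limma, adjusted p = 0.0727). Cldn5, the tight-junction claudin of brain endothelium, had 1199, 932 and 1006 in VPA cortex, against 1532, 1521 and 1584 in MC cortex (log2 difference -0.57). Sox2, a transcription factor of neural progenitors and astrocytes, had 1913, 1626 and 1798 in VPA cortex, against 2309, 2393 and 2120 in MC cortex (log2 difference -0.36). The highest VPA array lay below the lowest MC array for each of these. The other 9 were Tpd52l2 (-0.55), Tlnrd1 (-0.58), Soga3 (-0.39), Eml6 (-0.55), Klc4 (-0.41), Pygo1 (-0.63), Nsun2 (-0.35), Gabrg1 (-0.41) and Incenp (-0.43), all log2 differences. Pygo1 is a cofactor of beta-catenin, Nsun2 an RNA methyltransferase and Klc4 a kinesin light chain.

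**Figure D1:**
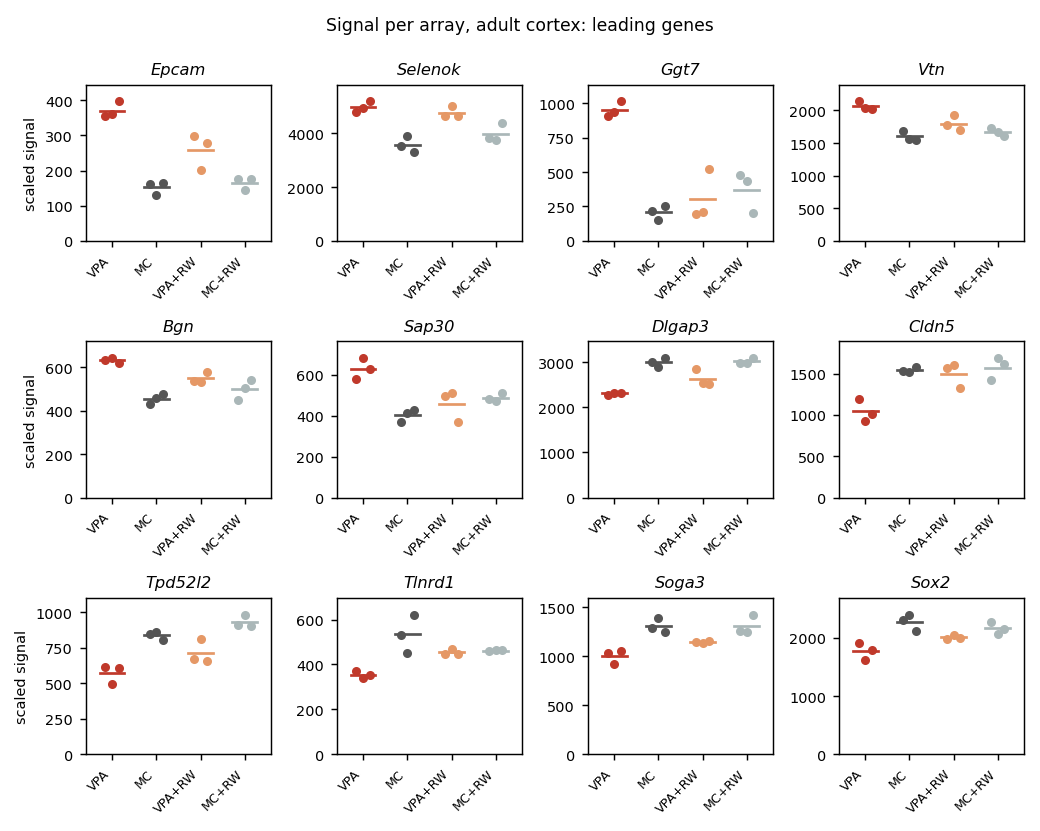
Scaled signal (vertical axis, linear, starting at 0) of 6 leading genes higher and 6 leading genes lower in VPA cortex, one point per array and a bar at the group mean, in VPA, MC, VPA+RW and MC+RW cortex. VPA and MC points do not overlap in any panel, and Ggt7, at 906 to 1014 in VPA cortex, has no such separation between VPA+RW and MC+RW.

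Cortex from the runners gave a comparison with no array in common: VPA+RW against MC+RW. There 3 of 13644 genes passed (0.022%), all lower in VPA+RW: Pcnt, Gsk3b and Cdk18. At an unadjusted p below 0.05 there were 1304 genes (9.56%), 716 higher (5.25%) and 588 lower (4.31%). Pcnt, a centrosome protein, fell to 481, 455 and 491 in VPA+RW cortex, against 1019, 1013 and 1039 in MC+RW cortex (limma adjusted p = 0.00255). The gap did not appear without the wheel, where Pcnt had 494, 682 and 594 in VPA cortex, against 684, 524 and 615 in MC cortex. Gsk3b, a kinase of the Wnt and insulin pathways, had a log2 difference of -0.39 in runners (limma adjusted p = 0.0464) and of 0.14 without the wheel (unadjusted p = 0.0317). The difference between those 2 effects was tested for every gene, and none passed, at 854 genes (6.26%) with an unadjusted p below 0.05 and a smallest adjusted p of 0.109 in limma.

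The genes that ranked high without the wheel were looked up in runners. Of the 73 genes with an unadjusted p below 0.001 in VPA against MC, 58 (79.5%) had the same sign in VPA+RW against MC+RW. For 21 of the 73 (28.8%) the same sign came with an unadjusted p below 0.05 there, and 0 had such a p in the opposite direction. Over all 13644 genes, 899 (6.59%) had the same sign with such a p in runners, and 405 the opposite sign with such a p. For the 378 genes with p below 0.01 the share of the same sign was 76.2%, and it was 55.7% over all 13644 genes. Without MC replicate 3 the share for p below 0.01 was 82.4%, and without MC replicate 1 it was 67.7%. Values were smaller in runners: over the 73 genes, the median log2 difference of those higher in VPA was 0.334 without the wheel and 0.087 with it, and of those lower -0.432 and -0.149. Beside Epcam, Selenok and Dlgap3 (-0.20 in runners, unadjusted p = 0.00337), the 21 included Tpd52l2 (-0.39), Eml6 (-0.33), Incenp (-0.31) and Slc6a20a (0.29). Other leading genes stood nearer 0 in runners, among them Klf9 (0.006), Tlnrd1 (-0.022) and Cldn5 (-0.076). Pygo1 (0.221) and Gabrg1 (0.155) had the opposite sign there, as did Ggt7 and Sap30. The 73 genes were ranked by p without the wheel, which favours large estimates there. Both comparisons also share 1 estimate of the spread per gene, so that ranking favours small standard errors in runners too.

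**Figure D2:**
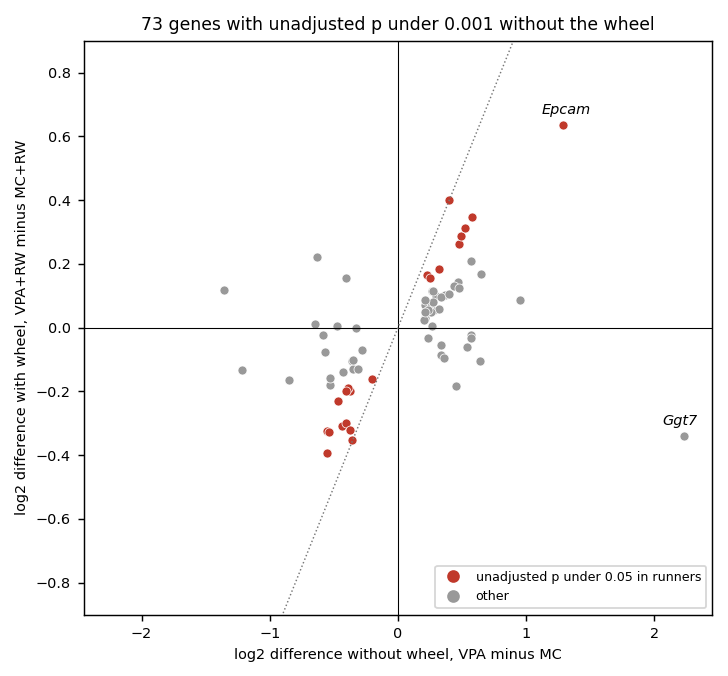
Log2 difference of VPA minus MC without the wheel (horizontal axis) and of VPA+RW minus MC+RW (vertical axis, drawn on a wider scale) for the 73 genes with an unadjusted p below 0.001 without the wheel, red where the runners' unadjusted p was below 0.05. All red points lie in the quadrants of same sign, and Ggt7, at 2.23, lies below 0 in runners.

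In the hippocampus without the wheel, 0 of 13511 genes passed in limma (0%), with 1495 (11.1%) at an unadjusted p below 0.05. The difference between the VPA effect in cortex and in hippocampus passed in limma for 0 of 14049 genes (0%), with 994 (7.08%) at an unadjusted p below 0.05. The labels do not say whether both tissues came from the same animals. Among the leading cortex genes, Slc2a1 differed by 0.31 in hippocampus (unadjusted p = 0.00302), Klf9 by 0.23 (unadjusted p = 0.000347), Sox2 by -0.22 (unadjusted p = 0.00393) and Cldn5 by -0.25 (unadjusted p = 0.0233). Dlgap3 stood at -0.04 there (unadjusted p = 0.531) and Tpd52l2 at -0.003 (unadjusted p = 0.986).

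A total of 36 lists of genes was followed, covering cell types, signalling and chromatin, with 702 distinct genes tested. None of the 702 passed the adjusted test. At an unadjusted p below 0.05, 77 were higher and 42 lower in VPA, against 5.7% and 4.71% of all genes, and the counts below are set beside those shares. The lists were chosen with earlier results of these data known, so a count above those shares is no test of a list. Some genes, such as Per1, stand in several lists, so the list counts are not independent. On the values as deposited, where 50 of all genes were higher and 420 lower, no list had more than 4 members higher. After quantile normalization these were 791 and 480. In whole tissue, fewer cells of a type and less RNA per cell cannot be told apart.

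**Figure D3:**
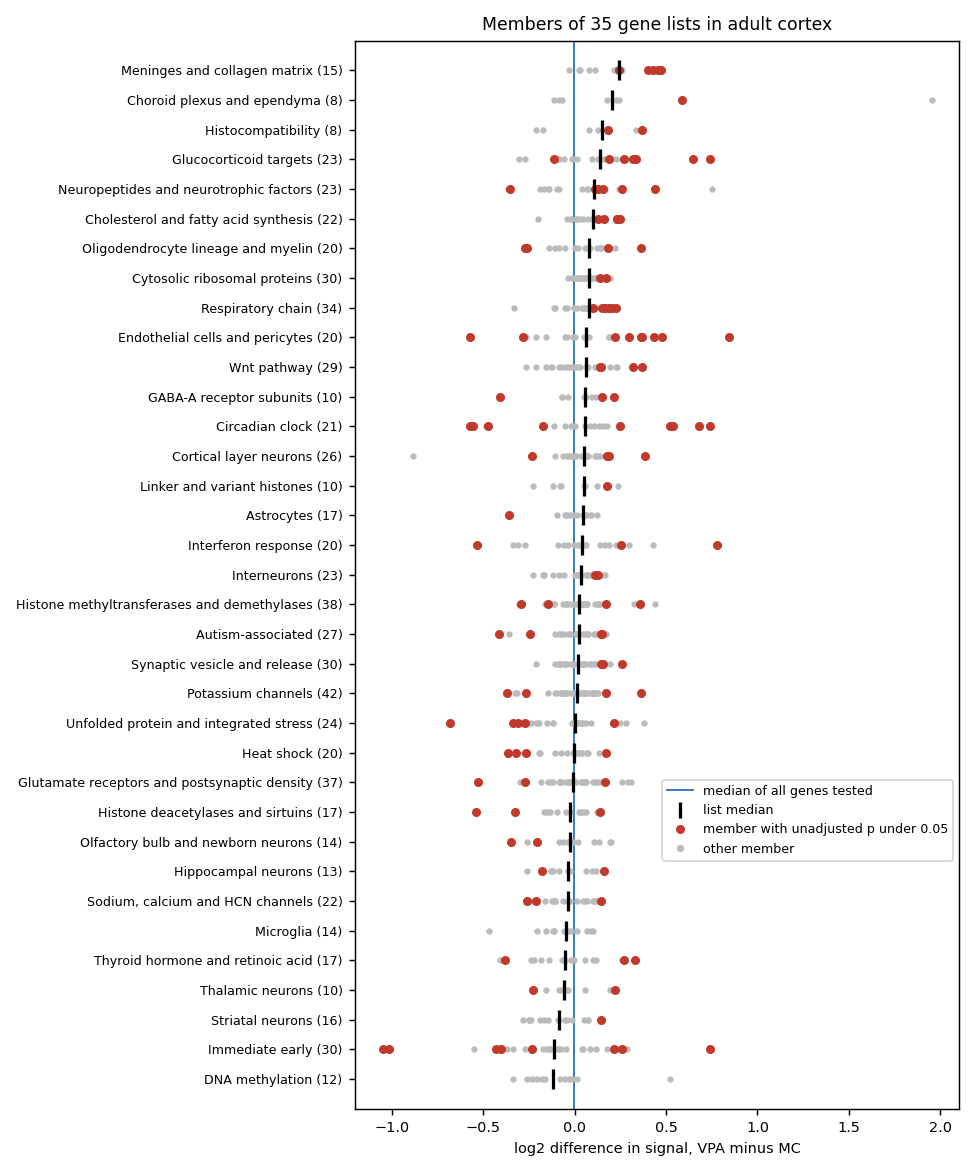
Log2 difference of VPA minus MC (horizontal axis) for the members of 35 gene lists with at least 8 genes tested, number tested in brackets, red at an unadjusted p below 0.05 and a black tick at each list's median, ordered by that median. Medians run from -0.12 for DNA methylation to 0.243 for meninges and collagen matrix, around the median of all genes at -0.0028.

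The medians of the neuronal and glial lists lay near that of all genes. The 26 cortical layer markers had a median log2 difference of 0.052, with 3 higher and 1 lower, and summed to 48049 to 50015 in VPA cortex and 47116 to 47657 in MC cortex. Ccn2, a marker of the deepest cortical layer, had 1375, 1554 and 1382 in VPA cortex, against 1050, 1290 and 983 in MC cortex. These did not overlap, and the log2 difference was 0.38 (unadjusted p = 0.002). Interneuron markers had a median of 0.034 with 2 of 23 higher, the neuropeptides Sst (0.13) and Cck (0.11). For 17 astrocyte markers the median was 0.045, with only Sox9 below the unadjusted threshold (-0.36, groups overlapping). Microglial markers had a median of -0.05 and none of 14 below it (1 higher and 2 lower without MC replicate 3). Without that array the interneuron count was 2 higher and 2 lower. After quantile normalization it was 0 and 0, with Sst at 0.06 (limma unadjusted p = 0.227) and Cck at 0.03 (unadjusted p = 0.403). Of 20 oligodendrocyte genes (median 0.078), 2 were higher and 2 lower, and in runners 6 were higher and 2 lower (all genes 5.25% and 4.31%). The count without the wheel was 4 and 2 without MC replicate 3, 1 and 2 without VPA replicate 1, and 1 and 1 after quantile normalization. Among them the myelin gene Mog had 737, 735 and 844 in VPA cortex, against 620, 580 and 597 in MC cortex. Those groups were apart both without the wheel (log2 difference 0.36, unadjusted p = 0.00107) and in runners (0.43, unadjusted p = 0.000261). Mobp, another myelin gene, differed by 0.18 in both sets, while Ermn (-0.27) and Olig2 (-0.26) were lower without the wheel, with overlapping groups.

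Vessel and meningeal genes held the largest shares of low p-values among the cell lists. Of 20 endothelial and pericyte genes, 7 were higher and 2 lower (median 0.063), and 9 had groups that did not overlap, against 15.7% of all genes. Higher were Vtn, Slc2a1 and Myl9, a smooth-muscle myosin light chain at 623, 664 and 540 in VPA cortex, against 395, 431 and 486 in MC cortex (log2 difference 0.48). Cldn5 was on the lower side, so the list did not move one way. Of 15 meningeal and collagen matrix genes, 5 were higher and 0 lower, with a median of 0.243 and 14 of 15 above 0. They included Bgn, Ogn (osteoglycin, 0.40), Mgp (matrix Gla protein, 0.46) and Fn1 (fibronectin, 0.24). Bgn had 633, 642 and 621 in VPA cortex, against 432, 460 and 476 in MC cortex. The vascular list summed to 18831 to 20713 in VPA cortex and 17509 to 18164 in MC cortex, without overlap, and the meningeal list to 18666 to 21113 in VPA cortex and 16726 to 19247 in MC cortex, with overlap. Without MC replicate 3 or without VPA replicate 1 the meningeal count remained 5 higher and 0 lower, and the vascular count was 5 higher and 2 lower in either case. After quantile normalization they were 6 and 0 for the meningeal list and 6 and 2 for the vascular one, and on the values as deposited 1 and 0, and 3 and 1. In runners 2 of the vascular genes were higher and 1 lower at an unadjusted p below 0.05 (all genes 5.25% and 4.31%), and 0 of the meningeal genes had a low p in either direction. Markers of neighbouring regions had medians of -0.089 (16 striatal genes), -0.035 (13 hippocampal), -0.061 (10 thalamic) and -0.026 (14 of olfactory bulb and newborn neurons), with 0 to 1 higher and 0 to 2 lower, and 0 to 1 higher and 1 to 3 lower without VPA replicate 1. How much vessel or meninges each dissected sample held was not tested.

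Genes of the circadian clock held low p-values on both sides. In the mammalian clock, Arntl (BMAL1) and its partner drive Per, Cry and the output genes Dbp, Nr1d2, Ciart and Bhlhe40 through E-box elements. The PER and CRY proteins repress that drive. Arntl itself is driven through ROR elements, which the REV-ERB proteins occupy, so that Arntl and many of its targets peak at opposite times of day. The labels give a 12 h light-dark cycle and no hour of sampling, so time of day and group cannot be told apart. The promoters below, of Ciart and Per1 (higher in VPA cortex) and of Cry1 and Arntl (lower), are shown for which of the 2 kinds of element each holds. They are 300-base RefSeq windows on GRCm38.p6, from 250 bases before to 50 after the start of transcription, 5′ to 3′ on the strand of the gene, with the E-box CACGTG in capitals for the first 3 and the core of the ROR element, TAGGTCA, in capitals for Arntl. Their positions are chr3:95882179-95882478 on the minus strand for Ciart, chr11:69098699-69098998 on the plus strand for Per1, chr10:85185005-85185304 on the minus strand for Cry1 and chr7:113207261-113207560 on the plus strand for Arntl.
Ciart: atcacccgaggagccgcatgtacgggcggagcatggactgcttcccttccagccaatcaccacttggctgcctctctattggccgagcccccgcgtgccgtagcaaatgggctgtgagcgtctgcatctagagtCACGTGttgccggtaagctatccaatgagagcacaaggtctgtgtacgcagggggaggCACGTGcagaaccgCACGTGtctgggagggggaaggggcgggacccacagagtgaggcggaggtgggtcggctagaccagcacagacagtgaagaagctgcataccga
Per1: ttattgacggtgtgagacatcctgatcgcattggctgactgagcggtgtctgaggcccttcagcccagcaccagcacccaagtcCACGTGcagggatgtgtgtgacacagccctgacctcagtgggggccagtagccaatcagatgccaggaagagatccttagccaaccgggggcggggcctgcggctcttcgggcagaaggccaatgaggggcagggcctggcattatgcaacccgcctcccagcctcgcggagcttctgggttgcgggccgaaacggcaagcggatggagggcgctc
Cry1: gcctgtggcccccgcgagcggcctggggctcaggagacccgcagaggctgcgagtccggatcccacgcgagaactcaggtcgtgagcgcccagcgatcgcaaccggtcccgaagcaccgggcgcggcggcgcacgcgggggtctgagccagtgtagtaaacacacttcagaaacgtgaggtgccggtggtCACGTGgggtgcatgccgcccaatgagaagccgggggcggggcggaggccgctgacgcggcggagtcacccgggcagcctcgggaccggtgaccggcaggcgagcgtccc
Arntl: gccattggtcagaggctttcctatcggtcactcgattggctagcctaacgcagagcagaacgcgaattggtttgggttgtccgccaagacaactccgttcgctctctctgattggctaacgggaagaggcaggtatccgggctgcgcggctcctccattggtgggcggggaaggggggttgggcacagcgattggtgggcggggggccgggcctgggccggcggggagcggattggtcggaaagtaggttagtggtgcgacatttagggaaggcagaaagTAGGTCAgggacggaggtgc

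The Ciart window holds 3 E-boxes and those of Per1 and Cry1 hold 1 each. Searched on both strands, CACGTG occurs in 7.15% of 32851 promoters and TAGGTCA in 2.61%, and 18 of the 21 clock genes tested had a promoter in the table, 5 with CACGTG and 2 with TAGGTCA. Per1 and Arntl have 2 starts each in the table, of which the one that holds the element is printed. A match is a string of letters and no measure of binding.

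Of the 21 clock genes, 5 were higher and 4 lower in VPA cortex, and 10 had groups that did not overlap, against 15.7% of all genes. Ciart, a repressor of the clock, had 605, 494 and 535 in VPA cortex, against 310, 308 and 410 in MC cortex. Every VPA array was above every MC array, with a log2 difference of 0.68 ± 0.20 (SE, n = 3 per group, limma, adjusted p = 0.297). Per1 had 1930, 2171 and 2152 in VPA cortex, against 1115, 1101 and 1575 in MC cortex (0.74 ± 0.18, adjusted p = 0.198). Dbp, a transcription factor of clock output, had 2723, 2838 and 2857 in VPA cortex, against 1847, 1858 and 2176 in MC cortex (0.52). Bhlhe40 had 2647, 3007 and 3024 in VPA cortex, against 2038, 1894 and 2028 in MC cortex (0.54, adjusted p = 0.173 in limma). All 4 were apart between the groups, as was Nr1d2 (REV-ERB beta, 0.25).

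On the lower side, Arntl had 779, 666 and 726 in VPA cortex, against 968, 1074 and 969 in MC cortex, which did not overlap (-0.47 ± 0.12, SE, n = 3 per group, limma, adjusted p = 0.198). Its second measured probe set gave -0.04. Cry1, a repressor that is late in the cycle, had 263, 268 and 219 in VPA cortex, against 400, 360 and 353 in MC cortex, also without overlap (-0.58). Csnk1e, the kinase that acts on PER proteins, differed by -0.17, and Bhlhe41 by -0.56 with overlapping groups. Ciart, Dbp, Nr1d2, Csnk1e and Bhlhe41 were named after their values had been seen, as the remaining clock genes at an unadjusted p below 0.05.

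In runners 2 clock genes were higher and 4 lower at that threshold, against 5.25% and 4.31% of all genes. Ciart differed by 0.63 (unadjusted p = 0.00647), Dbp by 0.63 (unadjusted p = 0.0165), Arntl by -0.37 (unadjusted p = 0.00637) and Csnk1e by -0.37 (unadjusted p = 2.49e-05), each with the sign seen without the wheel. Per1 (0.08) and Bhlhe40 (-0.06) stood near 0 there. In hippocampus Ciart differed by 1.1 (unadjusted p = 0.00367), Arntl by -0.30 (unadjusted p = 0.0075), Bhlhe40 by 0.39 (unadjusted p = 0.000132) and Per1 by 0.13 (unadjusted p = 0.503). Without MC replicate 3 the clock count stayed at 5 higher and 4 lower, and without VPA replicate 1 it was 3 and 4. After quantile normalization it was 3 and 3, and on the values as deposited 4 and 2.

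**Figure D4:**
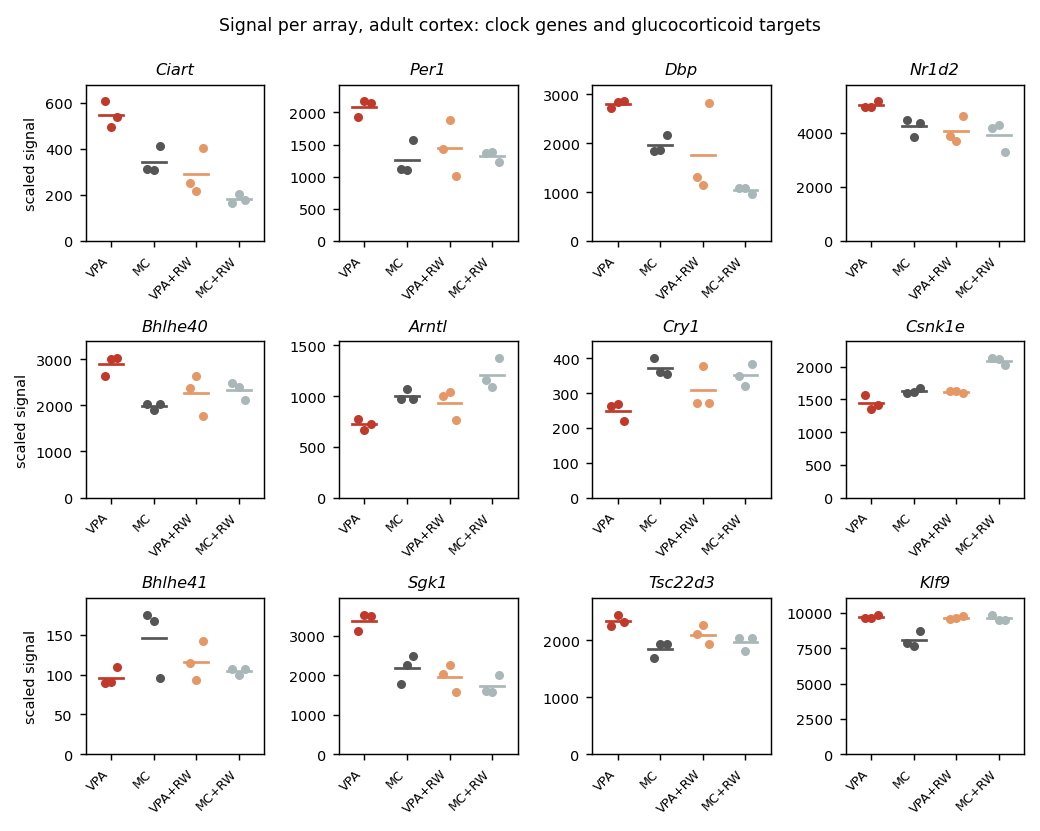
Scaled signal (vertical axis, linear, starting at 0) of 9 clock genes and 3 glucocorticoid targets, one point per array and a bar at the group mean, in VPA, MC, VPA+RW and MC+RW cortex. Ciart and Dbp lie higher and Arntl lower in VPA than in MC cortex and in VPA+RW than in MC+RW cortex by group mean, while Per1 and Bhlhe40 are apart only between VPA and MC.

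Glucocorticoid targets, genes that the stress hormone receptor switches on, had a median of 0.137 over 23 genes, with 6 higher and 1 lower. Sgk1, a kinase induced by corticosterone, had 3107, 3526 and 3500 in VPA cortex, against 1777, 2246 and 2493 in MC cortex. Its groups did not overlap, with a log2 difference of 0.65 ± 0.14 (SE, n = 3 per group, limma, adjusted p = 0.173). Tsc22d3 (GILZ, an anti-inflammatory target) had 2241, 2443 and 2313 in VPA cortex, against 1694, 1934 and 1931 in MC cortex (0.33), though 2 of its other probe sets gave -0.16 and -0.02. Per1 and Klf9, both also in this list, complete the 4 with the lowest p, and Klf9 is subject to the probe sets described above. Without MC replicate 3, and likewise without VPA replicate 1, the count was 6 higher and 0 lower. It was 5 and 1 after quantile normalization and 2 and 0 on the values as deposited. In hippocampus Sgk1 differed by 0.68 (unadjusted p = 0.00143) and Tsc22d3 by 0.39 (unadjusted p = 0.000618), and in cortex of runners by 0.17 (unadjusted p = 0.25) and 0.10 (unadjusted p = 0.237). Hormone levels were not analysed here.

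Immediate early genes, which neurons switch on within minutes of activity, had a median of -0.113 over 30 genes, with 3 higher and 5 lower. The member with the lowest p was Per1, also a clock gene, which was higher (0.74). The next 3 by p were lower. Npas4, a transcription factor specific to neuronal activity, had 412, 249 and 279 in VPA cortex, against 717, 655 and 543 in MC cortex. Those groups lay apart, with a log2 difference of -1.05 ± 0.30 (SE, n = 3 per group, limma, adjusted p = 0.281). Ccn1, a secreted matrix protein, had 294, 238 and 217 in VPA cortex, against 553, 607 and 374 in MC cortex (-1.02), and Jun had 1125, 974.8 and 961.1 in VPA cortex, against 1316, 1253 and 1480 in MC cortex (-0.40). Both were without overlap. In runners Jun differed by -0.24 (unadjusted p = 0.0443), the sign seen without the wheel, while Ccn1 differed by 0.59 (unadjusted p = 0.0421) and Npas4 by 0.07 (unadjusted p = 0.813). The immediate early count was 4 higher and 5 lower without MC replicate 3, and 3 and 6 without VPA replicate 1. It was 1 and 5 after quantile normalization and 1 and 8 on the values as deposited.

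Over 5 lists of synapse and excitability genes, 16 of 141 genes (11.3%) had an unadjusted p below 0.05, a share near that of all genes (10.4%). Of 10 GABA-A receptor subunits, 2 were higher and 1 lower. Gabrb2 had 6114, 6087 and 6365 in VPA cortex, against 5259, 5368 and 5385 in MC cortex, and Gabra4 differed by 0.15. The gamma subunit Gabrg1 had 900, 864 and 757 in VPA cortex, against 1088, 1095 and 1153 in MC cortex. All 3 were without overlap. Among 37 glutamate receptor and postsynaptic genes (median -0.009), 1 was higher (Dlg1, 0.17) and 2 lower (Cacng2, stargazin, -0.53, and Grik2, a kainate receptor subunit, -0.27). Another probe set of Cacng2 gave 0.04. Of 30 genes of synaptic vesicles and release (median 0.018), 3 were higher, the complexin Cplx1 (0.26), Sv2b (0.14) and Pclo (0.15, with other probe sets at -0.16 and -0.25), and all 30 intervals lay within 1.5-fold. Potassium channels (42 genes, median 0.012) had 2 higher and 2 lower, led by Kcnj10, the glial inward rectifier, at 1479, 1285 and 1198 in VPA cortex, against 992, 1035 and 1046 in MC cortex. Sodium, calcium and HCN channels (22 genes, median -0.038) had 1 higher and 2 lower. The glutamate count was 0 higher and 1 lower without VPA replicate 1, and the vesicle count was 4 higher and 1 lower without that array or MC replicate 3 and 1 higher and 3 lower after quantile normalization.

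Neuropeptide and neurotrophic genes had 5 higher and 1 lower of 23 (median 0.105). Vgf, a secreted peptide precursor induced by neurotrophins, had 4926, 4758 and 3417 in VPA cortex, against 2995, 3207 and 3353 in MC cortex. VPA replicate 3 sat close to the MC arrays, and the log2 difference of 0.44 (limma adjusted p = 0.208) became 0.61 (adjusted p = 0.0196) without that array. Nrn1 (neuritin) differed by 0.15 and Pnoc, the precursor of nociceptin, by -0.36. Of 27 autism-associated genes, 2 were higher and 2 lower: Cntnap2 (0.15), Scn2a (0.14), Oxtr, the oxytocin receptor (-0.42), and Ptchd1 (-0.24). Single arrays moved that count, to 4 higher and 0 lower without MC replicate 3 and to 0 and 1 without VPA replicate 1. The neuropeptide count was 2 higher and 1 lower after quantile normalization.

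Histone deacetylases, of which classes I and IIa are targets of the drug, were followed together with sirtuins. Of these 17 genes (median -0.026), 1 was higher and 2 were lower, and 16 had intervals within 1.5-fold. Hdac7 had 395, 379 and 363 in VPA cortex, against 517, 462 and 448 in MC cortex, apart from each other (-0.33, unadjusted p = 0.0068). Hdac8 differed by -0.54 with overlapping groups and Hdac3 by 0.14. The list had 0 higher and 1 lower without VPA replicate 1, and 1 higher and 3 lower without MC replicate 3. Of 38 histone methyltransferases and demethylases, 2 were higher and 2 lower, and 4 and 5 without MC replicate 3. Kmt5b, which methylates histone H4 and is linked to autism, had 637, 589 and 568 in VPA cortex, against 721, 815 and 672 in MC cortex. Its groups were apart (-0.30, unadjusted p = 0.00833), as they were in runners (-0.34, unadjusted p = 0.0032), while other probe sets gave 0.05 and 0.03. Setd5 (0.17), Setdb2 (0.36) and Kdm7a (-0.15) were the others. The 12 genes of DNA methylation had a median of -0.12, the lowest of the 35 lists plotted, with 0 higher and 0 lower at an unadjusted p below 0.05.

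Metabolic genes with low p-values lay on the higher side by small amounts that depended on the scaling. Of 34 respiratory chain genes, 7 were higher and 0 lower (median 0.077), among them Atp5d (0.23), Sdhb (0.17), Sdha (0.16) and Atp5o (0.15), although other probe sets of Atp5d, Sdha and Atp5o gave -0.02, -0.27 and -0.42. Sdhb had 4805, 5140 and 5220 in VPA cortex, against 4513, 4395 and 4604 in MC cortex. Of 22 genes of cholesterol and fatty acid synthesis, 5 were higher and 0 lower (median 0.1): Hmgcs1, an early enzyme of sterol synthesis, had 7533, 7273 and 7874 in VPA cortex, against 6980, 6918 and 6876 in MC cortex. Neither gene overlapped between groups. Dhcr7, the last enzyme of cholesterol synthesis, differed by 0.23, the regulator Insig1 by 0.25 and Msmo1 by 0.23. Without MC replicate 3 the sterol count was 2 higher and that of the respiratory chain 10 higher and 1 lower. After quantile normalization the respiratory chain had 2 higher and 2 lower (median 0.008) and the sterol list 3 higher and 0 lower, with Hmgcs1 at 0.04 (unadjusted p = 0.404), Sdhb at 0.10 (unadjusted p = 0.075), Sdha at 0.09 (unadjusted p = 0.125) and Atp5o at 0.08 (unadjusted p = 0.143). Dhcr7 (0.27), Insig1 (0.25) and Atp5d (0.15) kept an unadjusted p below 0.05 there. On the values as deposited neither list had a gene higher at that threshold, and the respiratory chain had 1 lower. Ribosomal proteins had 28 of 30 members above 0 but a median of only 0.077, with 2 of 30 below the unadjusted threshold, 6 without MC replicate 3 and 0 without VPA replicate 1.

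Among stress genes, most of the few with a low p were lower in VPA. Of 24 unfolded protein and integrated stress genes (median 0), 1 was higher (Eif2ak3, the PERK kinase, 0.22) and 4 lower, including Manf, a secreted factor of the endoplasmic reticulum, at 1051, 1022 and 1072 in VPA cortex, against 1385, 1426 and 1185 in MC cortex, without overlap (-0.34), Pdia4 (-0.31) and Sesn2 (-0.69, groups overlapping). Of 20 heat shock genes, 1 was higher (Dnaja1, 0.17) and 3 lower: Cryab (-0.27), Hspa1b (-0.37) and Chordc1 (-0.32). Wnt pathway genes had 4 of 29 higher and 0 lower, Axin2 (0.32), Dvl1 (0.15), Gsk3b (0.14) and Axin1 (0.37). Other Gsk3b probe sets gave -0.28 and -0.25, and the Wnt count was 0 without VPA replicate 1. Of 8 histocompatibility genes, B2m, the light chain of class I molecules, had 4860, 4601 and 4707 in VPA cortex, against 3485, 4103 and 3433 in MC cortex (0.37), and H2-K1 differed by 0.18. In the thyroid hormone and retinoic acid list, 2 of 17 were higher, Klf9 and the receptor Thra (0.33), and 1 was lower, against 3 and 2 without VPA replicate 1.

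The genes that responded in the embryo were followed into the adult cortex. At E14.5, hours after the last dose, 2121 of 10681 genes measured at both ages (19.9%) passed an adjusted p below 0.05 and 1.5-fold in the telencephalon, 1109 higher and 1012 lower in VPA. In adult cortex 0 of the 2121 passed in limma. At an unadjusted p below 0.05 in the adult, 74 of the 1109 were higher (6.67%) and 65 lower (5.86%), and 38 of the 1012 were higher (3.75%) and 57 lower (5.63%), against 6.52% and 4.96% of the 10681. The 1109 had a median adult log2 difference of -0.004 (median 0.835 at E14.5) and the 1012 one of -0.021 (median -0.814), against 0.001 over the 10681. For 84.1% of the 1109 and 83.8% of the 1012, the adult 95% interval lay within 1.5-fold. The adult sign matched the embryonic one for 49.1% of the 1109, where 50.3% of the 10681 were above 0 in the adult. It matched for 56.2% of the 1012, for which the share to compare is that of the genes not above 0. At E18.5, 23 of 11168 genes (0.206%) met the same criteria in the forebrain, 7 higher and 16 lower, and 0 passed in adult cortex in limma. At an unadjusted p below 0.05 there, 1 of the 7 was higher and 1 of the 16 lower, against 6.43% and 4.95% of the 11168. The adult sign matched for 6 of the 7 (85.7%) and 13 of the 16 (81.2%), with adult medians of 0.086 and -0.074. In runners these medians were 0.006 and 0.235. The adult interval lay within 1.5-fold for 100% of the 7 but only 43.8% of the 16, so larger differences remain possible for many of the 16.

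Single genes are set side by side below, in different tissue samples at the 2 ages. Sesn2, a stress-induced regulator with the largest early log2 difference shown (3.83), stood at -0.69 in adult cortex. Klf9 had 2.92 at E14.5 and 0.27 in the adult, Hspa1a 2.91 and -0.19, and Hspa1b 2.59 and -0.37. On the other side, Kmt5b had -2.27 at E14.5 and -0.30 in adult cortex, the same probe set at both ages. Dis3l, with the lowest early value, -2.42, stood at -0.04 in the adult.

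**Figure D5:**
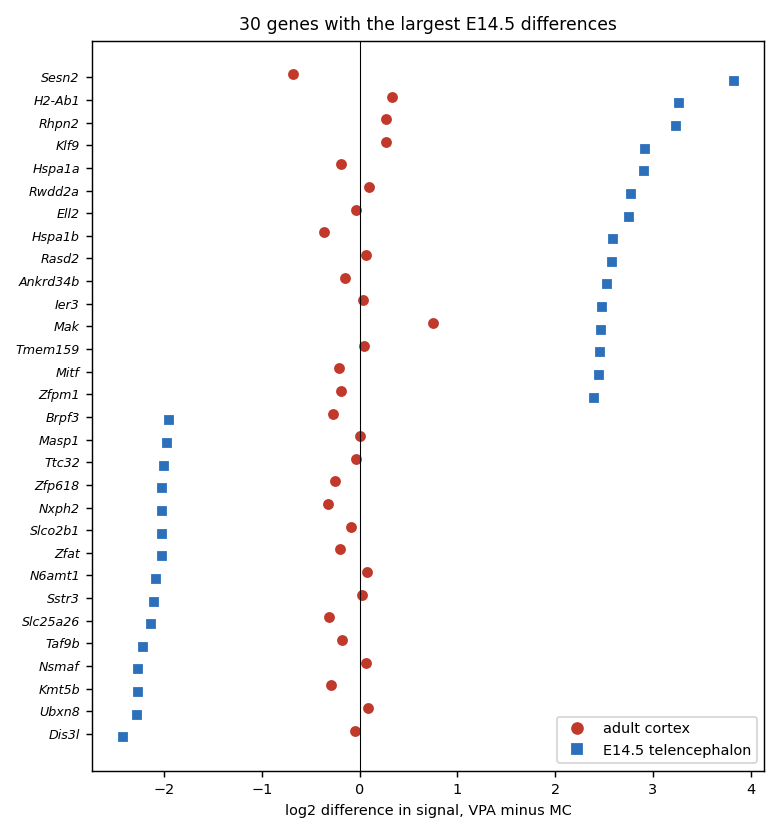
Log2 difference of VPA minus MC (horizontal axis) in the telencephalon at E14.5 (blue squares) and in adult cortex (red circles) for the 15 genes with the largest higher and the 15 with the largest lower embryonic difference. Embryonic values run from -2.42 to 3.83 and adult values lie between -0.69 and 0.75.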

How the data were processed

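Adult cortex was profiled on Affymetrix Mouse Genome 430 2.0 arrays, and the deposited values are linear intensity signals per probe set made with GCOS, per the submitters' processing notes, which give neither algorithm nor target. Signals were divided by the 2% trimmed mean of their array, multiplied by 500, floored at 32 and put on a log2 scale. Of 45101 probe sets, 34958 had 1 gene symbol, 932 had several and 9211 had none; symbols were updated through RefSeq gene identifiers for 34754, and each gene was represented by its brightest probe set. Genes needed a signal of 100 in 3 arrays. limma 3.58.1 (R 4.3.3) with a mean-variance trend was fitted to the 12 adult cortex arrays with 4 groups, so that both comparisons share 1 estimate of the spread, and p-values were adjusted by Benjamini-Hochberg at 0.05 over all genes. Hippocampus was fitted likewise on its own 4 groups, and the difference between tissues on the adult arrays of both. Each embryonic age was fitted on its VPA, MC and valpromide arrays. The number of arrays limits the precision. The procedure was tested on simulated data.

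Named genes are the 12 with the smallest p in each direction with a signal of 200 in the higher group and no clone name, and up to 4 per list. The members and lists were chosen with earlier results of these data known. Alternatives were other scalings, floors, filters and probe sets, a replicate block, no trend, the 2 groups alone, and each array left out; the list counts without single arrays and under other scalings, the fits without each runner array, and the share of signs under other settings were added after seeing the data.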

Additional observations from a re-analysis of the deposited data

How the results depend on the processing

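The count of 1 gene in adult cortex became 2 on the values as deposited, 2 after quantile normalization, 0 with no filter, 0 with no trend and 5 with only the 6 arrays of the groups compared, 0 to 3 when 1 of these 6 was left out, and 0 to 5 when 1 of the runner arrays was. Those called beside Epcam under these settings were Ggt7, Dlgap3, Bhlhe40, Cirbp and Myo7b, and without single arrays also Ss18l1, Selenok, Sap30, Tlnrd1 and Vgf. The count of list members was 0 to 1 over the arrays left out. In runners the 3 genes became 0 with no filter, 1 with the replicate block, 1 with no trend, 5 with the 2 groups alone and 1 to 12 with any 1 of the 12 arrays left out (12 without MC+RW replicate 3). The difference with the wheel gave 2 on the values as deposited and 0 to 1 with an array left out. Hippocampus gave 2 with no filter, 1 with its 2 groups alone and 0 to 4 with an array left out, and the difference between tissues 0 to 2. Deviations of VPA and MC arrays of the same number correlated at 0.151, -0.12 and -0.002. With 3 arrays per group these values can neither show nor exclude pairing by number. With the replicate block the cortex count was 1. The cause of these shifts was not tested.

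Of 98 genes followed through 1568 settings, 1516 values kept their direction and side of the threshold. The direction turned for 36 other probe sets of 27 genes and in 1 further fit, Cacng2 with the 2 groups alone (0.041). Those probe sets gave log2 differences of -0.047 for Selenok, -0.074, -0.045, -0.079 and -0.177 for Klf9, -0.038 for Gabrb2, -0.011 for Phc2, 0.03 for Tpd52l2, 0.058 for Eml6, 0.275 for Incenp, -0.157 for Calb1, 0.042 for Nr4a2, 0.052 for Sox9, -0.076 and -0.046 for Mobp, 0.002 for Ermn, -0.08 for Gabra4 and 0.041 for Cacng2. They gave -0.156 and -0.252 for Pclo, -0.162 and -0.017 for Tsc22d3, 0.054 and 0.034 for Kmt5b, -0.023 for Atp5d, -0.273 for Sdha, -0.416 for Atp5o, -0.055 for Cntnap2, -0.102 and -0.008 for Scn2a, 0.078 for Ptchd1, -0.018 for Dvl1, -0.277 and -0.255 for Gsk3b, -0.01 for Axin1 and -0.033 for Thra. Dim probe sets are bounded by the floor, which limits what they can show.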
